A study of Mus musculus with 12 samples.

Results

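The 34 genes described here encode enzymes of the citrate cycle, of the entry of pyruvate into it and of the transaminase and glutamate reactions that feed it. They were chosen by gene symbol from a table of 24775 genes measured in mouse hearts, and all 34 were found. Messenger RNA was sequenced from the hearts of C57BL/6 mice in 4 groups of 3 libraries. A first group, called vector sham, carried the genotype label WT, received an adeno-associated virus of serotype 9 without PRODH (AAV9-Vector) and had sham surgery. PRODH sham hearts were labelled PRODH Overexpression, received AAV9-PRODH and had sham surgery. Vector TAC hearts (WT, AAV9-Vector) and PRODH TAC hearts (PRODH Overexpression, AAV9-PRODH) had transverse aortic constriction (TAC), a surgical narrowing of the aorta that makes the left ventricle pump against a higher pressure. Every mouse received a virus 3 weeks before its surgery, and tissue was taken 4 weeks after surgery. The overexpression was described as cardiac-specific, while the sources used here give neither the promoter in the virus nor the age and sex of the mice. The study asked how TAC changed the hearts of vector mice, and how PRODH hearts differed from vector hearts after TAC.

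The citrate cycle oxidises acetyl-CoA in the mitochondrial matrix and passes electrons to the respiratory chain, which drives most of the ATP synthesis of a beating heart. Pyruvate enters through the mitochondrial pyruvate carrier and the pyruvate dehydrogenase complex, whose activity is set by kinases that switch it off and phosphatases that switch it on. Transaminases and glutamate dehydrogenase exchange amino acids with the cycle's oxo acids, and PRODH, proline dehydrogenase, starts the breakdown of proline, a route that ends in glutamate.

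Values are normalized read counts, that is, gene counts divided by a size factor per library, and the libraries held 10132059 to 15228036 reads. Differences are on the scale of log2(value + 1), and a gene was said to rise or fall where limma's test over 21173 genes gave a Benjamini-Hochberg adjusted p under 0.05. Prodh itself was read at 334, 292 and 379 in vector sham, 965, 497 and 1072 in PRODH sham, 245, 172 and 159.6 in vector TAC and 964, 1319.8 and 1021 in PRODH TAC hearts. Whether reads of the viral transcript are among these is not known. Prodh was higher in all PRODH TAC than in all vector TAC libraries, by 2.52 ± 0.24 (limma adjusted p = 0.00017). In sham hearts all PRODH libraries also lay above all vector libraries, the lowest being replicate 2 at 497. There the difference of 1.26 ± 0.24 did not pass the test (limma adjusted p = 0.62), which called 0 of the 21173 genes. Vector TAC replicate 1 and PRODH sham replicate 2 stood apart from the other libraries: summed markers of the epicardium and mesothelium were 489.7 and 489.0 there against 89.7 to 277 elsewhere, and summed red cell markers 120145 and 138441 against at most 55384. Values are given with all libraries, and calls among the 34 genes that were gained or lost without either of these libraries are named. Vector TAC replicate 1 also had the highest sum of macrophage markers, at 10880, and the lowest sum of fibroblast markers in its group, at 46542. The labels do not say that the libraries of a group came from separate animals, so p-values measure the spread between these libraries. In RNA from bulk heart tissue, fewer cells of a type and less RNA per cell cannot be told apart. Summed markers of atrial myocytes were low in every library, at 12.6 to 96.6.

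After TAC, vector hearts held less mRNA for 17 of the 34 enzymes than vector sham hearts, and PRODH TAC hearts held more than vector TAC hearts for 6. The 34 genes together made up 2.20%, 2.39% and 2.28% of all normalized reads in vector sham hearts and 2.50%, 2.24% and 2.46% in PRODH sham hearts. They made up 1.71%, 1.51% and 1.61% in vector TAC hearts and 2.12%, 2.18% and 2.18% in PRODH TAC hearts. The vector TAC libraries were thus the lowest of the 12, and the PRODH TAC libraries lay between them and the sham libraries, without overlap. Of the 34 genes, 17 fell after TAC in vector hearts and 0 rose, with a median log2 difference of -0.56 against 0.02 over all genes tested. Over all 21173 genes 4.05% fell, and among the 9582 genes with a mean above 100, where all 34 genes lie, 7.1% fell. In 26 of the 34, every vector TAC library lay below every vector sham library, against 10% of all genes and 13.8% of those with a mean above 100. Between PRODH TAC and vector TAC hearts, which share the vector TAC libraries with that comparison, 6 of the 34 rose and 0 fell, with a median of 0.44 against -0.01 over all genes tested. There 2.12% of all genes and 3.85% of those with a mean above 100 rose. All PRODH TAC libraries lay above all vector TAC libraries in 26 of the 34, against 10.6% of all genes and 16% of those with a mean above 100.

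**Figure D1:**
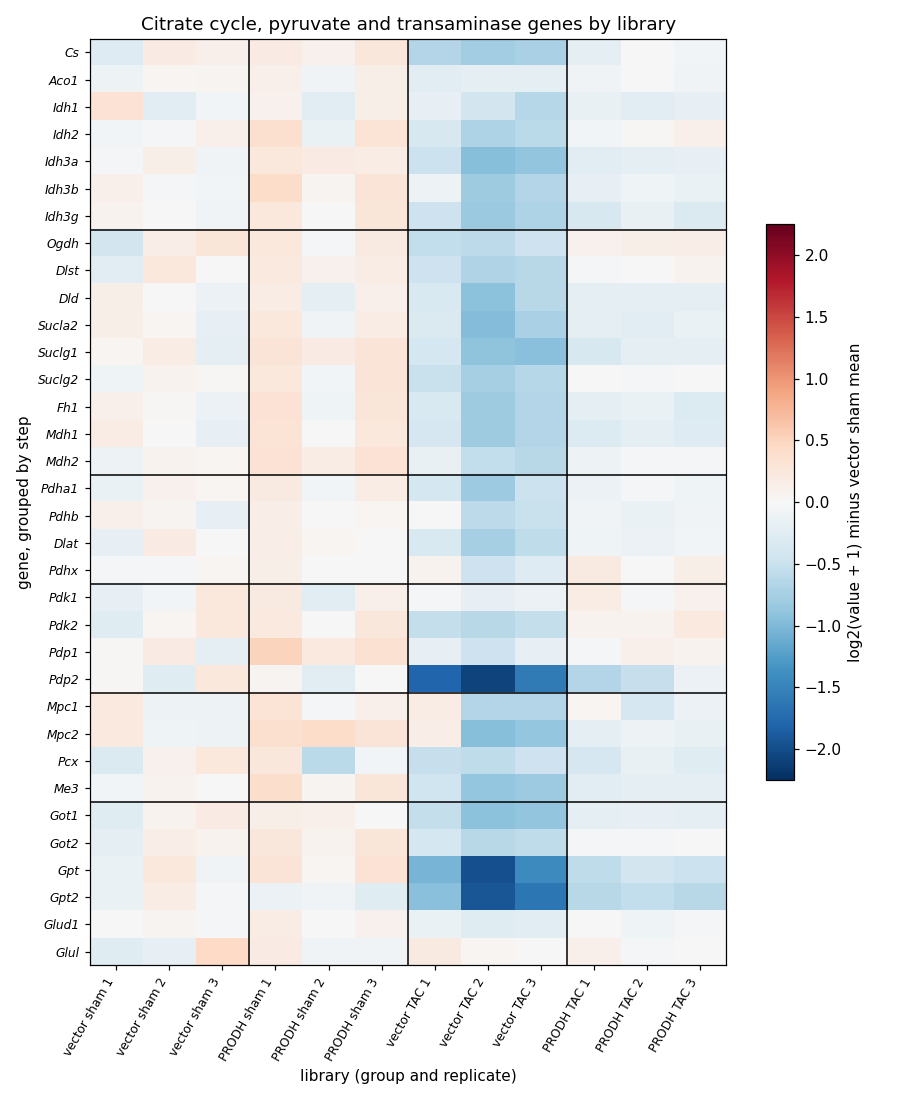
Each row is 1 of the 34 genes, ordered by step, and each column 1 of the 12 libraries. Colour gives log2(value + 1) minus the mean of the vector sham libraries, and the vector TAC columns are the lowest, with medians over the genes of -0.37, -0.75 and -0.63 against -0.15, -0.13 and -0.12 in PRODH TAC.

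How many of the 34 genes passed the test depended on single libraries, while the direction of a called gene never did. Without vector TAC replicate 1, 27 fell after TAC and 26 rose with PRODH, while the same fits called 8.78% of all genes as falls and 7.02% as rises. None of the calls made with all libraries was lost there. The library left out was the least changed of its group, with a median over the 34 genes of -0.37 against the vector sham mean. In vector TAC replicates 2 and 3, on which those fits rest, the median was -0.75 and -0.63. The 10 falls gained without it were those of Idh1, Idh2, Idh3b, Mdh1, Mdh2, Pdhb, Pdhx, Mpc1, Mpc2 and Got2, by log2 differences of -0.91 to -0.37. The 20 rises gained, by 0.44 to 0.76, were those of Cs, Idh2, all 3 Idh3 subunits, Ogdh, Dld, Sucla2, Suclg1, Fh1, Mdh2, the 4 genes of the pyruvate dehydrogenase complex, both carrier subunits, Me3, Got1 and Got2. The 8 genes not called with PRODH in that fit either were Aco1, Idh1, Mdh1, Pdk1, Pdp1, Pcx, Glud1 and Glul. Leaving out PRODH sham replicate 2 instead added Me3 to the rises and ended none of the falls or rises. The fall after TAC was called in 6 genes without vector TAC replicate 2 (2.08% of all genes fell) and in 9 without vector TAC replicate 3 (2.82%). It was called in 8 without vector sham replicate 2 (2.23%). With all libraries it was 17, against 4.05% of all genes. The rise with PRODH was called in 2 genes when vector TAC replicate 2 or any 1 of the PRODH TAC libraries was left out. Those fits called 0.589% to 0.841% of all genes as rises, against 2.12% with all libraries. Without vector sham replicate 1 it was called in 11 (2.69% of all genes), where Cs, Idh3a, Ogdh, Me3 and Got1 were added.

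The first steps of the cycle join acetyl-CoA to oxaloacetate and turn citrate into 2-oxoglutarate. Of the 7 genes assigned to them among the 34, 3 fell after TAC in vector hearts. Cs encodes citrate synthase, which opens the cycle. Its count was 13739, 19275 and 18198 in vector sham, 19182, 18126 and 20146 in PRODH sham, 10718, 9776 and 10164 in vector TAC and 14703, 16711 and 16227 in PRODH TAC hearts. Every vector TAC library lay below every other library, and the PRODH TAC libraries overlapped the vector sham libraries. Cs fell after TAC by 0.73 on the log2 scale (SE 0.18, limma adjusted p = 0.021), and its difference of 0.63 ± 0.18 between PRODH TAC and vector TAC hearts missed the threshold (limma adjusted p = 0.062) and passed at 0.67 ± 0.16 without vector TAC replicate 1 (limma adjusted p = 0.011). The fall of Cs was lost when replicate 2 or 3 of either vector group was left out. Idh3a encodes the catalytic subunit of the NAD-dependent isocitrate dehydrogenase of the matrix. It was read at 8007, 9024 and 7828 in vector sham, 9719.6, 9397 and 9322 in PRODH sham, 5916, 4280.2 and 4492 in vector TAC and 6920.0, 7084 and 7268 in PRODH TAC hearts. The 4 groups did not overlap, with PRODH sham highest and vector TAC lowest. Idh3a fell after TAC in vector hearts (log2 -0.77 ± 0.15, limma adjusted p = 0.0048), and with PRODH it was higher by 0.55 ± 0.15 without passing the test (limma adjusted p = 0.055), which it did at 0.69 ± 0.12 without vector TAC replicate 1 (limma adjusted p = 0.00091).

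The regulatory subunits of that enzyme gave 1 further call. Idh3g had counts of 6403, 6059.6 and 5750.0 in vector sham, 7140.1, 6029.9 and 7342 in PRODH sham, 4409.8, 3419 and 3758 in vector TAC and 4713, 5431 and 4850.1 in PRODH TAC hearts. It fell after TAC by 0.66 on the log2 scale (SE 0.14, limma adjusted p = 0.0094), and the vector TAC libraries were the 3 lowest of the 12. Leaving out vector TAC replicate 2 ended this call. For Idh3b the difference was -0.52 ± 0.19 (limma adjusted p = 0.11), with vector TAC replicate 1, at 10204, close to the sham libraries and the other vector TAC libraries at 6353 and 7017. Idh2, the NADP-dependent enzyme of the matrix, had counts of 21049, 21231 and 23879.5 in vector sham, 28344, 19938 and 27285 in PRODH sham, 17077, 13578 and 14524 in vector TAC and 20980.3, 22519 and 23974 in PRODH TAC hearts. Its vector TAC libraries lay below all others, yet neither the difference after TAC (-0.55 ± 0.20, limma adjusted p = 0.12) nor that with PRODH (0.58 ± 0.20, limma adjusted p = 0.14) passed. Both differences passed for Idh2 and Idh3b, and that with PRODH for Idh3g, when vector TAC replicate 1 was left out (log2 0.68 ± 0.18, 0.59 ± 0.14 and 0.48 ± 0.12 with PRODH, limma adjusted p = 0.017, 0.0087 and 0.017). The cytosolic enzymes had the smallest differences of the 7: Idh1, the cytosolic NADP-dependent isocitrate dehydrogenase, had -0.41 ± 0.16 after TAC, and Aco1, the cytosolic aconitase that also binds iron-responsive RNA elements, had -0.22 ± 0.11 (limma adjusted p = 0.15 and 0.29). The fall of Idh1 was called without vector TAC replicate 1 (log2 -0.52 ± 0.15, limma adjusted p = 0.027).

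Per kilobase of the longest annotated transcript, Idh2 was the most abundant of the isocitrate dehydrogenases, at 12320.2 normalized reads in vector sham hearts against 5402 for Idh3b, 3212 for Idh3a, 2919 for Idh3g and 339.6 for Idh1. The ratio of Idh2 to Idh3a per length was 3.39 to 4.40 in vector sham, 4.16 to 4.66 in vector TAC and 4.37 to 4.75 in PRODH TAC libraries, so the ranges overlapped. Cs exceeded Aco1 per length by a factor of 34.2 to 43.2 in vector sham libraries and 25.9 to 29.1 in vector TAC libraries, 2 ranges that did not overlap. In PRODH TAC libraries that factor was 35.7 to 39.7.

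From 2-oxoglutarate round to oxaloacetate, 6 of 9 genes fell after TAC in vector hearts, and in 9 of 9 the vector TAC libraries lay below all vector sham and all PRODH TAC libraries. Of the 6 genes that rose with PRODH, Dlst and Suclg2 belong to this stretch. Dlst encodes the dihydrolipoyl succinyltransferase core of the oxoglutarate dehydrogenase complex. Its counts were 7241, 9973 and 8492 in vector sham, 9848, 9041 and 9571 in PRODH sham, 6126, 5288 and 5495 in vector TAC and 8365, 8498 and 9006 in PRODH TAC hearts. PRODH TAC libraries lay within the vector sham range, and the vector TAC libraries were the 3 lowest. Dlst fell after TAC (log2 -0.59 ± 0.15, limma adjusted p = 0.025) and rose with PRODH (log2 0.62 ± 0.15, limma adjusted p = 0.034), a rise called in 5 of the 12 fits that left out a library, and not without vector TAC replicate 2 or 3, PRODH sham replicate 1 or 3, or any 1 of the PRODH TAC replicates. Its fall was not called when replicate 2 or 3 of either vector group was left out.

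Suclg2 encodes the subunit that makes succinyl-CoA synthetase form GTP. It was read at 2249, 2539.9 and 2450.5 in vector sham, 2850.3, 2305 and 2959 in PRODH sham, 1705, 1428 and 1538 in vector TAC and 2433, 2374 and 2406 in PRODH TAC hearts. The PRODH TAC values were close to each other and inside the vector sham range, and each exceeded the highest vector TAC value. Suclg2 fell by 0.63 after TAC (SE 0.12, limma adjusted p = 0.0051) and was higher by 0.63 ± 0.12 with PRODH (limma adjusted p = 0.011) on the log2 scale. Without vector TAC replicate 2, PRODH TAC replicate 1 or PRODH TAC replicate 3 the latter call was lost. A near-identical sequence, Gm15163, was read at 3.94% of the level of Suclg2.

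The partner subunits fell too. Sucla2, the subunit for ATP, had counts of 10284, 9652 and 8289 in vector sham, 11042, 8878 and 10465 in PRODH sham, 7458, 4776 and 5639.9 in vector TAC and 8085, 7996 and 8410.4 in PRODH TAC hearts, and it fell by 0.68 (SE 0.18, limma adjusted p = 0.028). Suclg1, the subunit common to both forms, had counts of 5305, 5761 and 4392 in vector sham, 6279.8, 5854 and 6279.5 in PRODH sham, 3888, 2745 and 2682 in vector TAC and 3992, 4478 and 4435 in PRODH TAC hearts, and it fell by 0.74 (SE 0.16, limma adjusted p = 0.0088). Leaving out replicate 2 of either vector group ended both calls, and leaving out vector sham replicate 1 or vector TAC replicate 3 ended that of Sucla2. With PRODH they differed by 0.48 ± 0.18 and 0.49 ± 0.16, neither past the threshold (limma adjusted p = 0.16 and 0.11), and without vector TAC replicate 1 both passed, at 0.65 ± 0.14 and 0.66 ± 0.12 (limma adjusted p = 0.005 and 0.002). Per length, Sucla2 exceeded Suclg2 in every library, by 5.11 to 6.91 in vector sham, 5.05 to 6.61 in vector TAC and 5.02 to 5.28 in PRODH TAC libraries, ranges that overlapped.

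Dld, the dihydrolipoyl dehydrogenase that serves both the oxoglutarate and the pyruvate dehydrogenase complex, had counts of 7489.8, 6826 and 6274 in vector sham, 7712, 5979 and 7451 in PRODH sham, 5394, 3631 and 4437 in vector TAC and 5963, 5892 and 5948 in PRODH TAC hearts. It fell by 0.63 (SE 0.16, limma adjusted p = 0.027) and its difference with PRODH was 0.42 ± 0.16 (limma adjusted p = 0.19). Fh1, fumarase, was read at 6801, 6429.9 and 5719.5 in vector sham, 7875, 5886 and 7575 in PRODH sham, 4946, 3610.4 and 3997 in vector TAC and 5448, 5712 and 5062 in PRODH TAC hearts, and it fell by 0.60 (SE 0.16, limma adjusted p = 0.03), with a difference of 0.38 ± 0.16 with PRODH (limma adjusted p = 0.23). Both genes were called higher with PRODH when vector TAC replicate 1 was left out, by 0.56 ± 0.14 and 0.51 ± 0.14 (limma adjusted p = 0.011 and 0.022). In both genes vector TAC replicate 1 was the highest of its group and still under every vector sham library. Both falls were lost when replicate 2 of either vector group was left out, and also without replicate 1 of the sham or replicate 3 of the TAC libraries of that virus.

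Ogdh, which encodes the decarboxylating subunit of the oxoglutarate dehydrogenase complex, was uneven among vector sham libraries. Its counts were 19295, 28455 and 31068 in vector sham, 30170.3, 25096 and 29715 in PRODH sham, 17576, 17052 and 18737 in vector TAC and 27396, 28322 and 28529 in PRODH TAC hearts. Vector sham replicate 1 lay near the vector TAC libraries and the other vector sham replicates near the PRODH TAC libraries. The difference after TAC was -0.53 ± 0.22 (limma adjusted p = 0.18) and passed without vector sham replicate 1. With PRODH the difference was 0.66 ± 0.22 (limma adjusted p = 0.12), and it passed without replicate 1 of either vector group. The malate dehydrogenases were the most abundant of all the genes per length beside Idh2, with 13259.9 normalized reads per kilobase for the cytosolic Mdh1 and 9985 for the matrix enzyme Mdh2 in vector sham hearts. Neither passed a test: the differences after TAC were -0.61 ± 0.21 and -0.45 ± 0.18 (limma adjusted p = 0.095 and 0.16), and those with PRODH 0.35 ± 0.21 and 0.40 ± 0.18 (limma adjusted p = 0.46 and 0.27). Without vector TAC replicate 1 both were called as falls after TAC (log2 -0.73 ± 0.17 and -0.59 ± 0.14, limma adjusted p = 0.0073 and 0.0076), and Mdh2 as a rise with PRODH (log2 0.54 ± 0.14, limma adjusted p = 0.017).

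Of the 4 genes of the pyruvate dehydrogenase complex, 2 fell after TAC in vector hearts and 0 rose with PRODH. Pdha1 encodes the E1 alpha subunit, the target of the kinases. Its counts were 9940.4, 11824 and 11413 in vector sham, 12722, 10549 and 12361 in PRODH sham, 8412, 6225 and 7895 in vector TAC and 10075, 10655 and 10251 in PRODH TAC hearts. It fell by 0.57 (SE 0.16, limma adjusted p = 0.047), a call made in 3 of the 12 fits without a library, namely when PRODH sham replicate 2 or replicate 1 of either vector group was left out. Dlat, the acetyltransferase core, had counts of 5901, 7616 and 6724 in vector sham, 7461, 6893 and 6721 in PRODH sham, 5291, 3999 and 4506 in vector TAC and 6301, 6092 and 6469 in PRODH TAC hearts, and it fell by 0.55 (SE 0.15, limma adjusted p = 0.031), a call made in 6 of those 12 fits and lost when replicate 2 or 3 of either vector group, or replicate 1 or 3 of the PRODH TAC group, was left out. In both genes the vector TAC libraries lay below all others. Pdhb, the E1 beta subunit, differed by -0.36 ± 0.18 and Pdhx, which anchors Dld to the core, by -0.22 ± 0.13 (limma adjusted p = 0.29 and 0.41). Vector TAC replicate 1 lay within the range of the vector sham libraries for Pdhb, at 11540.5, and above that range for Pdhx, at 2068. The differences of the 4 genes with PRODH ran from 0.26 to 0.47 and none passed. Without vector TAC replicate 1 they were 0.56 ± 0.15 for Pdha1, 0.44 ± 0.13 for Pdhb, 0.57 ± 0.13 for Dlat and 0.48 ± 0.11 for Pdhx, and all 4 passed, as did the falls of Pdhb and Pdhx after TAC.

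The kinases and phosphatases of the complex held the gene with the largest difference of the 34, Pdp2, which encodes 1 of the phosphatases that reactivate the complex. Its counts were 383, 311 and 439 in vector sham, 389, 312 and 374 in PRODH sham, 108, 87 and 124 in vector TAC and 237, 259 and 340.3 in PRODH TAC hearts. All vector TAC libraries lay below all others, and PRODH TAC libraries lay between them and the sham libraries, overlapping the vector sham range only at replicate 3. Pdp2 fell after TAC in vector hearts (log2 -1.82 ± 0.18, limma adjusted p = 4.5e-05) and rose with PRODH after TAC (log2 1.38 ± 0.18, limma adjusted p = 0.0011). Both calls were made in all 24 alternative analyses. In PRODH hearts TAC gave -0.37 ± 0.18 (limma adjusted p = 0.59). Pdp2 was the only 1 of the 34 whose TAC response differed between PRODH and vector hearts, by 1.45 ± 0.26 (limma adjusted p = 0.046), against 0.0472% of all genes higher in that test. That call was made in 1 of the 12 fits without a library, the fit without vector TAC replicate 1, and the adjusted p over its alternatives ran from 0.00029 to 0.18.

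Pdk2, a kinase that inhibits the complex, also fell after TAC in vector hearts and rose with PRODH after TAC. It was read at 4497, 5626 and 6389.9 in vector sham, 6367, 5393 and 6462 in PRODH sham, 3742, 3547 and 3745 in vector TAC and 5749.6, 5767 and 6332 in PRODH TAC hearts. The vector TAC libraries were the 3 lowest, and the PRODH TAC libraries lay within the vector sham range. Pdk2 fell by 0.57 after TAC (SE 0.15, limma adjusted p = 0.028) and rose by 0.69 ± 0.15 with PRODH (limma adjusted p = 0.017) on the log2 scale. The rise was lost without vector TAC replicate 2 or any 1 of the PRODH TAC replicates, and the fall when replicate 2 or 3 of either vector group was left out. Per length, Pdk2 exceeded Pdp2 by a factor of 29.8 to 45.9 in vector sham and 41.5 to 43.8 in PRODH sham libraries. In vector TAC libraries the factor was 76.6 to 103, above every other library, and in PRODH TAC libraries 47.2 to 61.4. This ratio was computed as a description of the values already given, with no test.

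The other kinase and phosphatase genes did not pass a test. Pdk1, also an inhibiting kinase, had counts of 2149, 2332 and 2884 in vector sham, 2811, 2029.8 and 2628 in PRODH sham, 2403, 2132 and 2209.7 in vector TAC and 2721, 2363 and 2596 in PRODH TAC hearts, and the groups overlapped. Its differences were -0.12 ± 0.15 after TAC and 0.19 ± 0.15 with PRODH (limma adjusted p = 0.75 and 0.6), and its ratio to Pdk2 per length was 0.180 to 0.207 in vector sham, 0.256 to 0.278 in vector TAC and 0.177 to 0.205 in PRODH TAC libraries. Pdp1, the calcium-sensitive phosphatase, had counts of 489.5, 549.6 and 418 in vector sham, 683, 563 and 614 in PRODH sham, 423, 348 and 426 in vector TAC and 466, 524 and 508 in PRODH TAC hearts. Its PRODH sham libraries lay above all vector sham libraries, and the difference of 0.36 ± 0.13 had an unadjusted limma p of 0.018 and an adjusted p of 0.97.

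Among the carrier and the side entries of pyruvate, 1 of 4 genes fell. Me3, the NADP-dependent malic enzyme of mitochondria, had counts of 1082, 1205 and 1122 in vector sham, 1497, 1181 and 1371 in PRODH sham, 830.0, 619.9 and 641 in vector TAC and 946, 969.6 and 991 in PRODH TAC hearts. Its vector TAC libraries were the 3 lowest and its PRODH TAC libraries lay between them and the vector sham libraries. Me3 fell by 0.72 after TAC (SE 0.13, limma adjusted p = 0.003), in all 24 alternative analyses, and its difference of 0.49 ± 0.13 with PRODH just missed the threshold (limma adjusted p = 0.0505) and passed when PRODH sham replicate 2 or replicate 1 of either vector group was left out. Pcx, pyruvate carboxylase, which refills oxaloacetate, had counts of 419, 563 and 617 in vector sham, 626, 343 and 507 in PRODH sham, 366, 354 and 382 in vector TAC and 402, 471 and 437 in PRODH TAC hearts, with differences of -0.52 ± 0.19 after TAC and 0.25 ± 0.19 with PRODH (limma adjusted p = 0.13 and 0.59).

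Both subunits of the mitochondrial pyruvate carrier had vector TAC replicate 1 far above the other vector TAC libraries. For Mpc2 the vector TAC counts were 6126, 2863 and 3030.2, and for Mpc1 they were 973, 550.1 and 547. The differences after TAC were -0.56 ± 0.22 for Mpc2 and -0.39 ± 0.20 for Mpc1 (limma adjusted p = 0.16 and 0.3), and both were called as falls without that library. With PRODH they were higher by 0.41 ± 0.22 and 0.24 ± 0.20 (limma adjusted p = 0.4 and 0.63), and without it both passed, at 0.76 ± 0.12 and 0.51 ± 0.14 (limma adjusted p = 0.00063 and 0.024). Values for Mpc1 are uncertain, because the pseudogene Mpc1-ps shares 261 bases with it at 100% identity and was read at a mean of 2787 against 827 for Mpc1. Mpc1-ps itself differed by -0.47 after TAC (limma adjusted p = 0.24). A further 6 of the 34 share a near-identical stretch with another annotated gene (at least 95% identity over at least 150 bases), none of those read at more than 5% of the gene's own level. Exons of Idh3b, Mdh1, Pdha1, Mpc1, Me3, Got2 and Glul overlap a gene on the opposite strand, and the sources used here do not give whether counting used the strand; the highest of those partners, Nop56, was read at a mean of 328.7 against 10547 for Idh3b.

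Transaminases exchange amino groups between glutamate and the oxo acids that enter the cycle. Of the 6 genes of this group 3 fell after TAC in vector hearts, and 2 of those rose with PRODH. Gpt encodes the cytosolic alanine aminotransferase, which interconverts alanine and pyruvate. Its counts were 507, 660.1 and 529.6 in vector sham, 686, 578 and 700.2 in PRODH sham, 271, 141 and 208 in vector TAC and 378, 419 and 402 in PRODH TAC hearts. Vector TAC libraries were lowest and PRODH TAC libraries lay between them and both sham groups, without overlap. Gpt fell after TAC (log2 -1.49 ± 0.19, limma adjusted p = 0.00022) and rose with PRODH (log2 1.00 ± 0.19, limma adjusted p = 0.0092). The rise was lost without PRODH TAC replicate 2.

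Gpt2, the mitochondrial alanine aminotransferase, was read at 823, 1032 and 905 in vector sham, 835, 864 and 756 in PRODH sham, 479, 239 and 297 in vector TAC and 594, 626 and 595 in PRODH TAC hearts. The order was the same, with all PRODH TAC libraries above all vector TAC and below all sham libraries. Gpt2 fell after TAC (log2 -1.50 ± 0.19, limma adjusted p = 0.00021) and rose with PRODH (log2 0.90 ± 0.19, limma adjusted p = 0.016). The rise was called in 7 of the 12 fits without a library, and was lost without vector TAC replicate 2 or 3 or any 1 of the PRODH TAC replicates. In vector TAC replicate 1 both genes were the highest of their group. The ratio of Gpt to Gpt2 per length was 0.760 to 0.830 in vector sham, 0.735 to 0.906 in vector TAC and 0.827 to 0.876 in PRODH TAC libraries. It was 0.869 to 1.20 in PRODH sham libraries, above every vector sham library.

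Got1 and Got2, the cytosolic and the mitochondrial aspartate aminotransferases, also carry the malate-aspartate shuttle. Got1 had counts of 9561, 12224 and 13067 in vector sham, 12675, 12463 and 11636 in PRODH sham, 7973, 6058 and 6219 in vector TAC and 10051, 10167 and 9939.6 in PRODH TAC hearts. Its vector TAC libraries lay below all others, and it fell by 0.78 (SE 0.17, limma adjusted p = 0.0092), a call lost without vector TAC replicate 2. With PRODH the difference was 0.59 ± 0.17 (limma adjusted p = 0.067), and it passed without replicate 1 of either vector group. Got2 had counts of 9394, 12146 and 11592 in vector sham, 13124, 11654 and 13268 in PRODH sham, 8386, 7152 and 7408 in vector TAC and 10605, 10637 and 11101 in PRODH TAC hearts. The same order held, and its differences of -0.52 ± 0.16 after TAC and 0.50 ± 0.16 with PRODH missed the threshold (limma adjusted p = 0.056 and 0.098), the first passing when replicate 1 of either vector group was left out and the second without vector TAC replicate 1.

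Glud1 and Glul, by contrast, had small differences. Glud1, glutamate dehydrogenase, had counts of 2511, 2629.6 and 2435 in vector sham, 2834, 2527 and 2687 in PRODH sham, 2274, 2078 and 2141 in vector TAC and 2513, 2356 and 2467 in PRODH TAC hearts, with -0.22 ± 0.11 after TAC and 0.18 ± 0.11 with PRODH (limma adjusted p = 0.27 and 0.46). Glul, glutamine synthetase, had counts of 5775, 6156 and 9589 in vector sham, 7919.5, 6623 and 6638 in PRODH sham, 7992, 7238 and 6981 in vector TAC and 7583, 6798 and 7026 in PRODH TAC hearts. The 4 groups overlapped, and Glul was the only 1 of the 34 whose mean log2 value was higher after TAC in vector hearts (0.08 ± 0.18, limma adjusted p = 0.87) and lower with PRODH (-0.05 ± 0.18, limma adjusted p = 0.93), the latter at 0.0040 without vector TAC replicate 1.

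**Figure D2:**
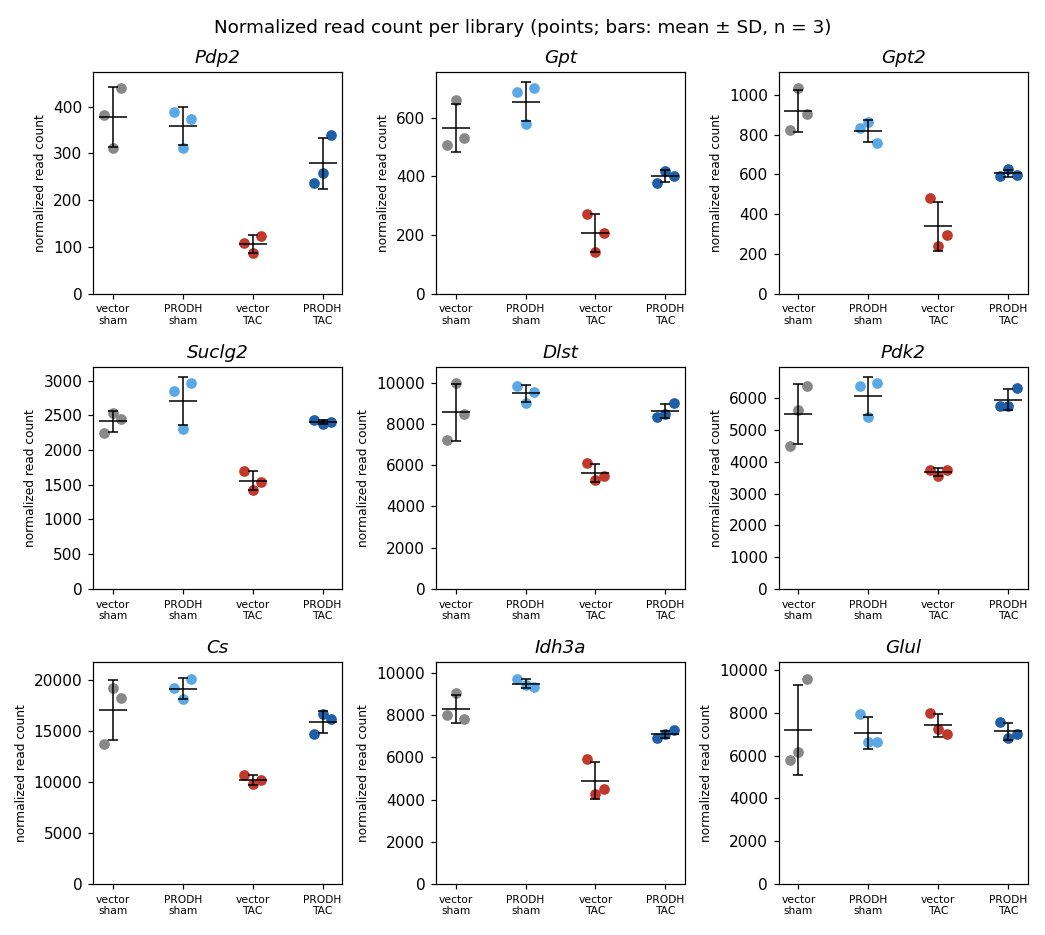
Normalized read counts per library (points) with the mean ± SD of each group (bars, n = 3) for 9 of the genes, each panel with its own vertical axis from 0. In 8 panels the vector TAC libraries are the lowest of the 12, and in the panel for Glul the groups overlap.

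Of the 6 genes that both fell after TAC and rose with PRODH (Pdp2, Gpt, Gpt2, Suclg2, Dlst and Pdk2), the sequences before the start site are shown for the 4 that have a single window in the RefSeq table of GRCm38.p6. Each window runs from 250 bases before to 50 bases after the start of transcription, on the strand of the gene. Capitals mark the GC box GGGCGG, read on either strand, and in Dlst also the ETS motif CCGGAAGT, read on either strand. The windows are Pdp2 at chr8:104591222-104591521 (plus strand), Gpt2 at chr8:85492326-85492625 (plus strand), Suclg2 at chr6:95718797-95719096 (minus strand) and Dlst at chr12:85110583-85110882 (plus strand).
Pdp2: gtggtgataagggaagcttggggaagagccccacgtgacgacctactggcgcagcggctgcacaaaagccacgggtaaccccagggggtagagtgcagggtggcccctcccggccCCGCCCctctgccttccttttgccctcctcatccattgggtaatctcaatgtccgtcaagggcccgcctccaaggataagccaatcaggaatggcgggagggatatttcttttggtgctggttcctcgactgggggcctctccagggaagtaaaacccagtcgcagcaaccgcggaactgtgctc
Gpt2: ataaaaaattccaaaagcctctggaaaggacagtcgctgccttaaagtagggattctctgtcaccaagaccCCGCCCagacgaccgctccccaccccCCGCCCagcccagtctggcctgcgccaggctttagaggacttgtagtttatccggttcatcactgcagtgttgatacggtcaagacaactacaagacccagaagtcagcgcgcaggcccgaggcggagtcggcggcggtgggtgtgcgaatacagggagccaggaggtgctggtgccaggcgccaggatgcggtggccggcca
Suclg2: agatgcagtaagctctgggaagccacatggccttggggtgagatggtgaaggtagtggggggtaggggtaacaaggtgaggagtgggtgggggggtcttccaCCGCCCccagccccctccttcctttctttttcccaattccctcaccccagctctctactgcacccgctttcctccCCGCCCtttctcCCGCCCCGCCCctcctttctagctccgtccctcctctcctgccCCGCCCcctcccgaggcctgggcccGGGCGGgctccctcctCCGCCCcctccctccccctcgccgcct
Dlst: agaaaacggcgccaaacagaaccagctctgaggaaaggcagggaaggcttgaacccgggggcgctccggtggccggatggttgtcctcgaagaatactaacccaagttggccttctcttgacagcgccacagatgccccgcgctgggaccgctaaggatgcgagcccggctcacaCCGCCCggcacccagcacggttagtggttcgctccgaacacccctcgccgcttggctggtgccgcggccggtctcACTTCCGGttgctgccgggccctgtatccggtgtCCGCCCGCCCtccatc
The GC box occurred at 1 place in Pdp2 and at 7 in Suclg2. Of the genes that fell and rose but are not shown, Pdk2 has more than 1 window, none with a GC box. Gpt has no window in that table. Of the 34 genes, 31 have a window in that table, and 22 of the 31 (71.0%) hold a GC box, against 38.2% of all 27025 genes with a window and 61.2% of the 13545 that were tested here. Among the genes that fell after TAC in vector hearts 8 of 15 hold it, and among those not called there 14 of 16. Binding sequences of factors known for genes of energy metabolism were searched in the same windows. The core of the oestrogen-related receptor site, AAGGTCA, was found in 2 of 31 (Ogdh and Got1, 6.45% against 5.38% of all genes and 4.26% of those tested), and its longer form TNAAGGTCA in 0 of 31 against 1.43% and 0.975%. The core of the NRF1 site, GCGCATGC, was found in 2 of 31 (Ogdh and Glud1, 6.45% against 3.05% of all genes and 4.98% of those tested), and the ETS motif in 1 of 31 (3.23% against 4.31% and 7.43%). All motifs were searched on both strands, and the AAGGTCA count includes any longer form.

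In sham hearts none of these genes passed the test between PRODH and vector libraries. The limma test called 0 of the 34 and 0% of all genes, the median log2 difference was 0.14, and the values ran from -0.16 for Gpt2 to 0.36 for Pdp1. At an unadjusted p under 0.05 there was 1 of the 34 (Pdp1) and 871 of all genes, and DESeq2 also called 0 of the 34. PRODH sham libraries lay above all vector sham libraries in 5 of the 34, Idh3a, Suclg1, Mdh2, Pdp1 and Mpc2, against 6.33% of all genes and 7.86% of those with a mean above 100. For Mdh2 the counts were 14869.5, 16827 and 16409 in vector sham and 20022, 17871 and 20147 in PRODH sham hearts.

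Within PRODH hearts the log2 differences between TAC and sham had a median of -0.26 and ran from -0.71 to 0.06. The limma test called 0 of the 34, against 0.0236% of all genes in either direction. At an unadjusted p under 0.05 there were 10 of the 34 and 1816 of all genes, and both DESeq2 and edgeR called 0 of the 34. In 21 of the 34 all PRODH TAC libraries nonetheless lay below all PRODH sham libraries, against 11.4% of all genes and 18.2% of those with a mean above 100. Gpt had the lowest value, -0.71 ± 0.19 (limma adjusted p = 0.29), followed by Suclg1 with -0.51 ± 0.16 and Mpc2 with -0.51 ± 0.22 (limma adjusted p = 0.35 and 0.57). Without vector TAC replicate 1, which enters this comparison only through the shared spread and the choice of genes tested, 4 genes (Suclg1, Mpc2, Me3 and Gpt) were called as falls, against 0.686% of all genes, and 9 were called when the spread was taken from the PRODH libraries alone, against 2.94%.

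The difference between both TAC responses was above 0 in 32 of the 34 genes, with a median of 0.28 against -0.01 over all genes tested. After Pdp2 came Gpt2 with 1.06 ± 0.27 and Gpt with 0.78 ± 0.27 (limma adjusted p = 0.2 and 0.38), neither past the threshold, and both were called without vector TAC replicate 1, where 0.696% of all genes were higher. For Pdk2 it was 0.54 ± 0.21, for Ogdh 0.53 ± 0.31 and for Got1 0.50 ± 0.24 (limma adjusted p = 0.47, 0.7 and 0.59). Pdp1 and Glul were the 2 genes below 0, at -0.03 and -0.06.

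**Figure D3:**
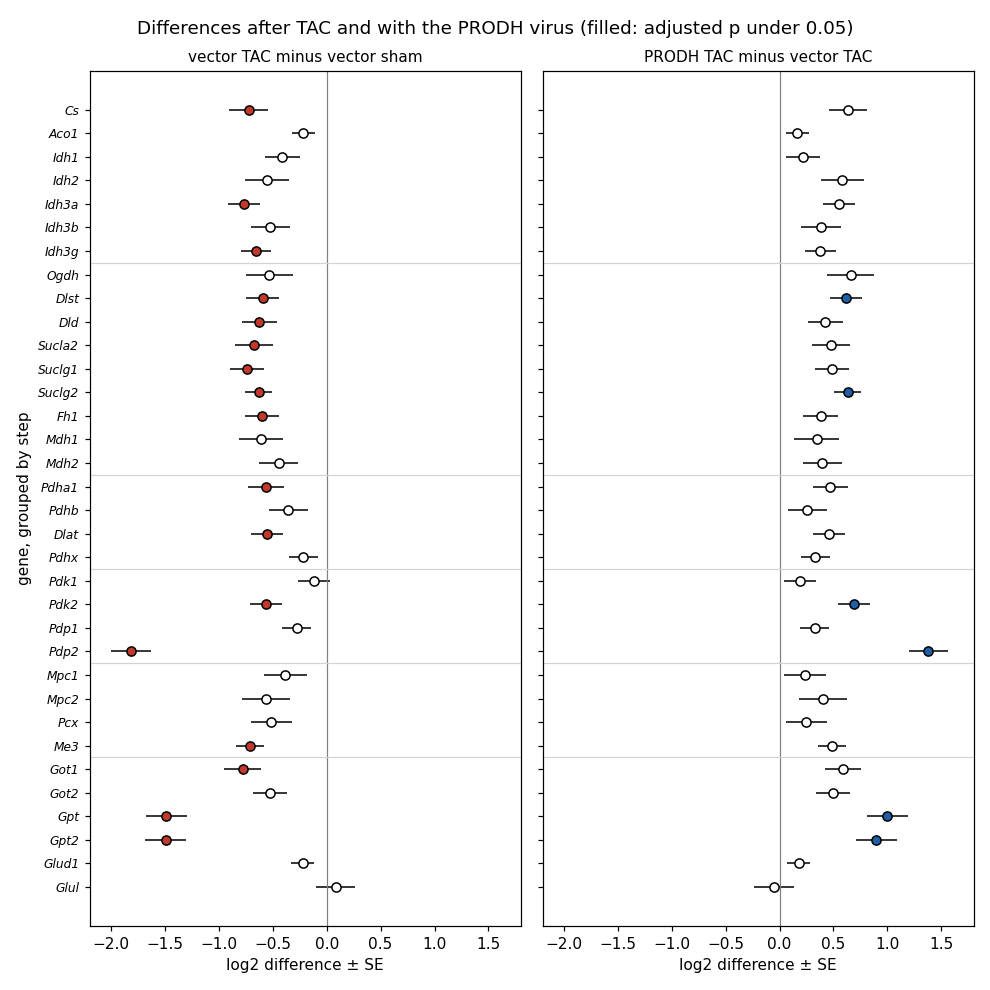
Log2 difference with its standard error for each of the 34 genes, ordered by step, after TAC in vector hearts and between PRODH and vector hearts after TAC (3 libraries per group). Filled points passed the limma threshold, 17 in the first comparison and 6 in the second, and Pdp2, Gpt and Gpt2 lie farthest from 0 in both.

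PRODH TAC hearts were also set against vector sham hearts, in a comparison added after the values had been seen. Here 0 of the 34 were called, against 0.0897% of all genes in either direction, with a median of -0.12. At an unadjusted p under 0.05 there were 3 of the 34 and 1297 of all genes, and DESeq2 and edgeR called 0 of the 34. All PRODH TAC libraries lay below all vector sham libraries in 9 of the 34, Idh3a, Idh3b, Idh3g, Dld, Fh1, Mdh1, Me3, Gpt and Gpt2, against 6.09% of all genes and 7.85% of those with a mean above 100. The lowest values were -0.60 ± 0.19 for Gpt2, -0.49 ± 0.19 for Gpt and -0.44 ± 0.18 for Pdp2 (limma adjusted p = 0.46, 0.67 and 0.73), and Gpt2 was called without vector TAC replicate 1. For Dlst, Ogdh and Pdk2 the difference was 0.02, 0.13 and 0.13.

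Genes of the same pathways outside the 34 are given for context, from lists chosen with earlier results of these data known. Of 7 other citrate cycle genes 3 fell after TAC in vector hearts and 2 of those rose with PRODH. In 4 of the 7 every vector TAC library lay below every vector sham library, against 10% of all genes. Ogdhl, a relative of Ogdh, fell by 1.22 (SE 0.14) and rose by 0.94 ± 0.14, and Sdhc, a membrane anchor of succinate dehydrogenase, fell by 0.74 (SE 0.14) and rose by 0.59 ± 0.14 on the log2 scale (limma adjusted p = 0.00012, 0.0026, 0.0051 and 0.034). Sdha, the flavoprotein of succinate dehydrogenase, fell by 0.82 (SE 0.19, limma adjusted p = 0.014). Of 11 other pyruvate genes 2 fell, Ldhd (D-lactate dehydrogenase) and Pdpr (the regulatory subunit of the pyruvate dehydrogenase phosphatase), by 1.04 and 0.84, and Ldhd rose with PRODH by 0.97 (limma adjusted p = 0.00022, 0.028 and 0.0013). Of 10 other glutamate and aminotransferase genes 4 fell and 1 rose with PRODH: Aldh5a1, which oxidises succinate semialdehyde to succinate, fell by 1.16 and rose by 1.03 (limma adjusted p = 0.00041 and 0.0029). Among 10 carriers of the cycle's acids 3 fell and 2 rose with PRODH, both being mitochondrial carriers of glutamate or aspartate, Slc25a22 and Slc25a12. None of 7 genes of lipoate and thiamine supply was called in either comparison (0, with 2 and 1 at an unadjusted p under 0.05).

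In fatty acid oxidation, the other main source of acetyl-CoA in the heart, 16 of 18 genes fell after TAC in vector hearts with a median of -0.78, and 7 rose with PRODH with a median of 0.61. In the respiratory chain 1 of 19 fell (Ndufs1) with a median of -0.50, and 0 rose with a median of 0.35. Over all genes tested 4.05% fell after TAC and 2.12% rose with PRODH. Against the vector sham mean, the 19 genes had a median of -0.13 in vector TAC replicate 1. In replicates 2 and 3 it was -0.73 and -0.70, with all 19 below 0. For fatty acid oxidation the medians were -0.40, -1.01 and -0.87. Calls for these lists without vector TAC replicate 1 are not given. The sum of the 34 genes was 181%, 191% and 201% of the summed fatty acid oxidation genes in vector sham and 204%, 238% and 230% in vector TAC libraries, without overlap. It was 174% to 189% in PRODH sham and 198% to 205% in PRODH TAC libraries, the latter overlapping both vector groups. Against the respiratory chain genes it was 69.2% to 82.4% in vector sham and 68.7% to 80.5% in vector TAC libraries, with overlap, and 73.2% to 75.2% in PRODH sham and 79.3% to 84.0% in PRODH TAC libraries. These shares were not tested.

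Markers of some cell types moved with the same comparisons. Of 8 epicardium and mesothelium markers tested 2 rose after TAC in vector hearts (median 1.56), and of 7 smooth muscle and pericyte markers 1 did. None of these was called with PRODH. No marker of atrial myocytes, endothelium, macrophages, lymphocytes, adipocytes, red cells or skeletal muscle was called in either comparison. Of 7 macrophage markers 5 had an unadjusted limma p under 0.05 in each, as did 4173 and 3488 of all genes. The medians were -0.05 and -0.06 for endothelial markers, and 0.50 and -0.53 for macrophage markers. The summed level of 12 myocyte markers, none at 0, ran from 810419 to 942986 in vector sham, from 910749 to 1007910 in PRODH sham, from 593596 to 782611 in vector TAC and from 782061 to 869623 in PRODH TAC libraries. Of those markers 2 fell after TAC in vector hearts and 2 rose with PRODH (Pln and Ryr2 in both), with medians of -0.37 and 0.36. Of 9 fibroblast markers, none at 0, 5 rose after TAC and 4 fell with PRODH, and their sum was 37679.7 to 41359 in vector sham, 46542 to 77552 in vector TAC and 33867 to 40526 in PRODH TAC libraries. Set against the myocyte marker sum, the 34 genes amounted to 30.0%, 29.9% and 27.7% in vector sham, 25.8%, 26.4% and 27.8% in vector TAC and 30.0%, 27.9% and 29.8% in PRODH TAC libraries, and 28.4% to 30.2% in PRODH sham libraries. On this scale the vector TAC libraries overlapped the vector sham libraries at replicate 3, and lay below the PRODH TAC libraries. What part the makeup of the tissue had in the differences of the 34 genes was not tested.

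**Figure D4:**
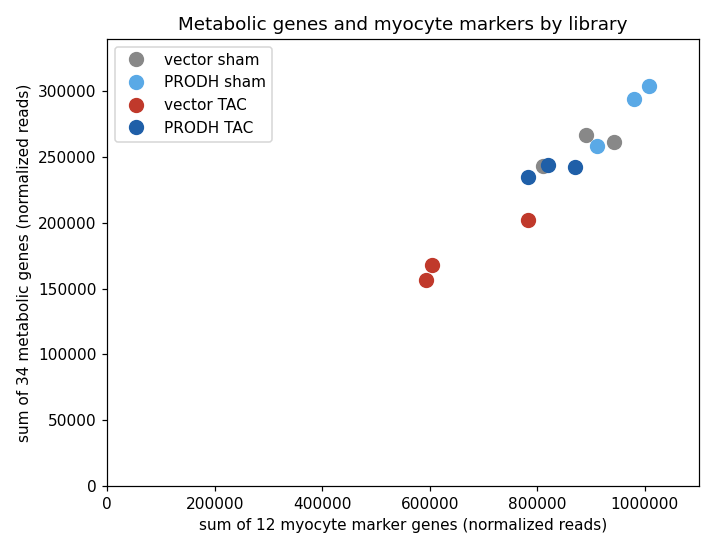
Sum of the 34 genes against the sum of 12 myocyte marker genes, both in normalized reads with axes from 0, 1 point per library and a colour per group. The vector TAC libraries have the 3 lowest sums of the 34 genes, at 156642 to 201950, and vector TAC replicate 1 reaches the myocyte marker sum of the lowest PRODH TAC library.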

How the data were processed

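The members and the gene lists were chosen with earlier results of these data known. Per the labels' protocols, RNA was isolated with TRIzol, freed of DNA and sequenced from SMARTER mRNA libraries. No aligner, counting tool, strand setting, genome build or annotation of the authors is named (not given in the sources used here). Each deposited value is a signal, the gene's count after scaling by a factor common to its library. The values show this, since 100% of them lie within 0.01 of a whole multiple of the smallest step in their column, which gave back the reads. All 12 columns were matched to samples by name. Identifiers were matched to GENCODE M21 (24735 of 24775), which supplied the longest transcript per gene for lengths.

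Tests used limma 3.58.1 in R 4.3.3 with a prior that follows mean expression. They ran on log2(value + 1) for the 21173 genes reaching 1 in 3 or more libraries, with a mean for each of the 4 groups and a common spread. A permutation test of 3 libraries against 3 is too small to pass the threshold, so p-values rest on this model. The procedure was tested on simulated data. Pathway genes outside the 34 were named only where called, at most 4 per list and comparison, with Prodh as the check of the labels. In addition, Ndufs1, Nop56, Mpc1-ps and Gm15163 were named after their values were seen. The named-gene rule covered every 1 of the 34. Alternatives comprised 24 settings, including edgeR 4.0.16 and DESeq2 1.42.0 on the recovered reads, other scalings, filters and pseudocounts, the replicate number as a block, a length and GC trend, and each library left out in turn. Near-identical sequences were found with blastn 2.17.0. Between replicates, chi-square per degree of freedom ran from 4.63 to 95.4, so no library counted as a repeat of another.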

Additional observations from a re-analysis of the deposited data

Results flagged for a closer look

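Pdp2 is listed here because its response to TAC differed between PRODH and vector hearts by the test of that difference itself. The log2 difference between the responses was 1.45 ± 0.26 (SE, 3 libraries per group, limma adjusted p = 0.046), the response being -1.82 in vector hearts and -0.37 in PRODH hearts. All 3 vector TAC libraries lay below all other libraries. The call was made in 8 of 23 alternative analyses.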

How the results depend on the processing

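No log2 difference of a called gene changed sign in any of the alternatives run. In vector hearts 17 genes fell after TAC, and 4 with only the groups compared (all genes called lower: 1.59%, against 4.05% as reported). It was 28 without both libraries that stood apart (9.30%), and 6 to 27 with a library left out (2.08% for 6 and 8.78% for 27). The 6 rises with PRODH after TAC (2.12% of all genes) became 11 at a mean of at least 10 (3.99%) and 3 with only the groups compared (0.995%). DESeq2 gave 18 (5.40%), the fit without both libraries 26 (7.52%), and removing a length and GC trend 11 (2.31%). With that trend taken from genes with a mean above 100, it was 22 (8.93%, chosen after seeing the data). A library left out gave 2 to 26 (0.589% to 0.841% for 2 and 7.02% for 26). For TAC in PRODH hearts 0 became 9 with only the groups compared (2.94% of all genes lower) and 5 without both libraries (0.689%). It was 0 to 4 with a library left out (0.686% for 4). The difference between both responses was called in 1 gene (0.0472% of all genes higher). It gave 0 with a pseudocount of 0.1, at a mean of at least 10 and with either trend removed (0% to 0.0287%). The count was 2 with DESeq2 (0.599%) and without both libraries (0.401%), and 0 to 3 with a library left out (0.696% for 3). A fit of only the groups compared was not run, since this comparison uses all 4. PRODH TAC against vector sham gave 1 without both libraries (0.176% of all genes lower) and 0 to 1 with a library left out (0.134% for 1). In sham hearts the count was 0 in every alternative, and 0 to 0 with a library left out. The causes of these shifts were not tested. Leaving out a library or fitting only the groups compared also leaves fewer samples for the spread. No pairing of libraries by replicate number was apparent, though 3 libraries per group are too few to exclude one. Deviations of same-numbered libraries correlated at -0.11 to 0.33 over 18 pairs and those of other pairs at -0.45 to 0.40 over 36. With the replicate number as a block, 16 genes fell after TAC in vector hearts (4.20% of all genes) and 7 rose with PRODH (2.31%). The other counts were 0, 0, 1 and 0, the 1 being for the difference between both responses (0.0520% of all genes higher). With 3 libraries per group and 10132059 to 15228036 reads each, replicates differed by more than counting error.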
